A study of Mus musculus with 8 samples.

Results

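The 6 chemokine receptor genes described here in RNAseq libraries of cultured mouse osteoclasts were Ccr1, Ccr2, Ccr3, Ccrl2, Cx3cr1 and Cxcr4. They were taken by symbol, matched through the Ensembl identifiers of the expression table, and were 6 of the 46517 genes listed there. All 6 were among the 14139 genes tested, those that reached 10 normalized counts in 4 or more of the 8 libraries. The libraries came from 4 Elmo1-/- and 4 Elmo1+/- mice, 1 library per mouse. ELMO1 is a cytoplasmic adaptor that works with DOCK proteins to activate Rac. The Elmo1+/- controls, whose titles call them WT, still lack 1 allele, so both genotypes carry the deletion, which was present in all cells of the animal. Bone marrow of mice aged 6 to 8 weeks was cultured for 16 h, the suspension cells were taken on in 10% medium conditioned by L929 cells, which supplies M-CSF, and osteoclasts were obtained with 50 ng/ml GST-RANKL over 7 days. The general protocol of the study places 3 days in L929 medium and a replating of the attached cells before RANKL, a step that the labels of these libraries leave out. No sorting of the cultures was described, and the study used littermate controls matched for age and sex, without giving the strain or sex for each library.

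Chemokine receptors are transmembrane proteins of the cell surface that bind small secreted chemokines and signal mainly through G proteins of the Gi class, and ELMO1 and DOCK2 link such receptors to Rac and to cell migration. In the myeloid lineage CCR1 and CCR2 guide monocytes, CX3CR1 marks monocytes and tissue macrophages, CXCR4 holds cells in the marrow near CXCL12, and CCR3 is best known from eosinophils. CCRL2 is an atypical receptor that binds chemerin and does not signal in the usual way. Osteoclasts form by fusion of monocyte and macrophage precursors, which such receptors help to bring to bone.

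On GRCm38 with GENCODE M21 gene models, 5 of the 6 genes lay on chromosome 9. Ccr1 (chr9:123962124-123968692, minus strand), Ccr3 (chr9:124021972-124031689, plus strand) and Ccr2 (chr9:124101950-124113557, plus strand) were 3 of the 8 chemokine receptor genes that follow each other within 469 kb. Ccrl2 (chr9:111054486-111057519, minus strand) and Cx3cr1 (chr9:119901616-120069879, minus strand) lay elsewhere on the chromosome, and Cxcr4 (chr1:128588199-128592293, minus strand) on chromosome 1. The identifiers were ENSMUSG00000025804 for Ccr1, ENSMUSG00000049103 for Ccr2, ENSMUSG00000035448 for Ccr3, ENSMUSG00000043953 for Ccrl2, ENSMUSG00000052336 for Cx3cr1 and ENSMUSG00000045382 for Cxcr4. The models of Cx3cr1 spanned 5 other genes without sharing exon bases with them. Of the 75-base windows of the transcripts, 78 of 6734 (1.16%) in Ccr2 and 5 of 4428 (0.113%) in Cx3cr1 also occurred in another gene, and none in the other members did.

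The promoters of Ccr1 and Ccr3 are shown because these 2 receptors had higher values in the same 4 libraries. That of Cxcr4 is shown as an example of the other members, whose means were all lower there with overlapping ranges. For Cx3cr1 the mean was lower there only through Elmo1-/- mouse 2, at 1406 normalized counts, and its mean log2 value differed by 0.01. Each is the 300 bases around the start site in RefSeq (GRCm38.p6), at chr9:123968643-123968942, chr9:124021721-124022020 and chr1:128592250-128592549, on the strand of the gene. Capitals mark matches, on either strand, to the motif letters GAGGAA (the PU.1 core), GGAAAA (NFAT, written TTTTCC on the other strand), TGANTCA (AP-1) and CATGTG (MITF), and to an IRF motif, which belong to factors of the monocyte and osteoclast lineage.
Ccr1: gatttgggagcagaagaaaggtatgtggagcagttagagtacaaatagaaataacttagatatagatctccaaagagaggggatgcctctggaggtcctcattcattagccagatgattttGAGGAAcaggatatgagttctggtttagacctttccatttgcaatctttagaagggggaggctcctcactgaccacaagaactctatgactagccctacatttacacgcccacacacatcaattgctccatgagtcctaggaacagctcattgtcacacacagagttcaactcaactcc
Ccr3: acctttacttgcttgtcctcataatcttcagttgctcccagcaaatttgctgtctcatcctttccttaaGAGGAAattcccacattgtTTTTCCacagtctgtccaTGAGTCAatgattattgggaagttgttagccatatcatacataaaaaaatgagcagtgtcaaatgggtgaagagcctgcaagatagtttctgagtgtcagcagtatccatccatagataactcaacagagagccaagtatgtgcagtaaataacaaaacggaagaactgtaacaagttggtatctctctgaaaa
Cxcr4: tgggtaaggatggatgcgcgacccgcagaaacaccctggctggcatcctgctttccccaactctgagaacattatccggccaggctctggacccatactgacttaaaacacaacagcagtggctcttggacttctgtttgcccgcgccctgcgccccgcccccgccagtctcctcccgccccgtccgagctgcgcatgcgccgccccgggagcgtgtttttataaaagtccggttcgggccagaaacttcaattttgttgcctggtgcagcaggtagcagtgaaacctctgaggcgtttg

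The Ccr1 window held 1 PU.1 core, which began at -129 from the start site. The Ccr3 window held 1 PU.1 core at -181, 1 NFAT match at -162 and 1 AP-1 match at -144. In the window of Ccr2, NFAT letters occurred at -191 and at 38 after the start. None of the 5 motifs occurred in the windows of Ccrl2, Cx3cr1 or Cxcr4. Among 32851 promoter windows of this length, 28.3% held the PU.1 core, 23.4% the NFAT letters, 7.81% the AP-1 letters, 14.2% the MITF letters and 3.44% the IRF letters. No 2 matches overlapped. A match describes the letters and is not a measured binding site.

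The libraries held 20905502 to 40846651 reads assigned to genes. Elmo1 itself was at 1423 to 1769 normalized counts in the Elmo1+/- libraries and at 274 to 316 in the Elmo1-/- libraries, as their labels say. It was the only 1 of 14139 past the threshold between genotypes (log2 fold change -2.44, SE 0.09, limma adjusted p = 8.4e-06). The osteoclast markers were high in all libraries, with Acp5 at 69893 to 253274 and Ctsk at 69531 to 328164 normalized counts. The 11 macrophage and monocyte genes summed to 1210650 to 2003750 normalized counts, most of it Lyz2, at 1004240 to 1705520. In every library this sum was above that of the 10 osteoclast genes (450909 to 1173010), but only through Lyz2. Without Lyz2 the order is the reverse in every library. The next highest of the 11 genes, Adgre1, was at 76358 to 108777 normalized counts, whereas Mmp9 of the osteoclast genes was at 293433 to 529620. Other lists had lower sums, with 10065 to 21672 normalized counts for the 8 neutrophil genes. The 7 stromal and osteoblast genes summed to 586 to 1310 and the 5 B cell genes to 164 to 416. The sum was 47.6 to 234 for the 7 T and NK cell genes and 81.4 to 169 for the 6 dendritic cell genes. Single genes made up most of 2 of these sums, Cd79b for B cells (157 to 409) and Cd4 for T and NK cells (42.8 to 229). The dendritic cell list shares Xcr1 and Ccr7 with the receptor family. The first principal component, with 62.3% of the variance, set the libraries numbered 1 and 2 of both genotypes apart from those numbered 3 and 4. The Elmo1-/- libraries 1 and 2 were not alike, at -52.3 and -6.03 on this component, whereas the Elmo1+/- libraries 1 and 2 were at -23.1 and -26.3 and the 4 libraries numbered 3 and 4 at 24.65 to 31.9. The study grew cells in 2 experiments with 2 mice per genotype in each, but the labels do not say which mice shared an experiment.

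Ccr1, a receptor for CCL3, CCL5, CCL6 and CCL9, was by far the most abundant of the 6. Per kilobase of exon it reached 2819 ± 932 normalized counts (SD, n = 4) in Elmo1+/- osteoclasts and 2707 ± 1264 (SD, n = 4) in those lacking Elmo1, and it ranked first among the members in 8 of 8 libraries. It held between 57.6% and 83.0% (median 77.0%) of the summed level per kilobase of the whole receptor family of 24 genes. Of all tested genes, 95.4% had a lower level per kilobase than Ccr1.

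Cxcr4, Ccr3 and Cx3cr1 followed at lower levels. In Elmo1+/- osteoclasts the levels per kilobase were 225 ± 39.4 for Cxcr4, 222 ± 28.0 for Ccr3 and 127 ± 39.0 for Cx3cr1, and in Elmo1-/- osteoclasts they were 221 ± 56.0, 229.8 ± 76.0 and 178 ± 89.8. The ranges of Cxcr4 and Ccr3 overlapped in both genotypes, but their order within a library followed the library number, a split seen after the values. Cxcr4 was the higher in each library numbered 1 or 2 (224 to 297 against 147 to 204 per kilobase). Ccr3 was the higher in each library numbered 3 or 4 (233 to 307 against 166 to 227). Cx3cr1 lay below Ccr3 without overlap in Elmo1+/- libraries, whereas in Elmo1-/- libraries the ranges of these 2 overlapped. The range of Cx3cr1 overlapped that of Cxcr4 in both genotypes. Ccrl2 was last but 1 in 8 of 8 libraries, at 80.8 ± 10.5 and 78.6 ± 15.2 per kilobase, and its range overlapped that of Cx3cr1 in Elmo1+/- only. Ccr2 was last in 8 of 8 libraries at 9.71 ± 3.36 and 8.74 ± 5.24 per kilobase, and only 9.48% of all tested genes were lower. Between 59.6% (Ccr3) and 36.4% (Ccrl2) of tested genes were lower than the 4 receptors in between.

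**Figure D1:**
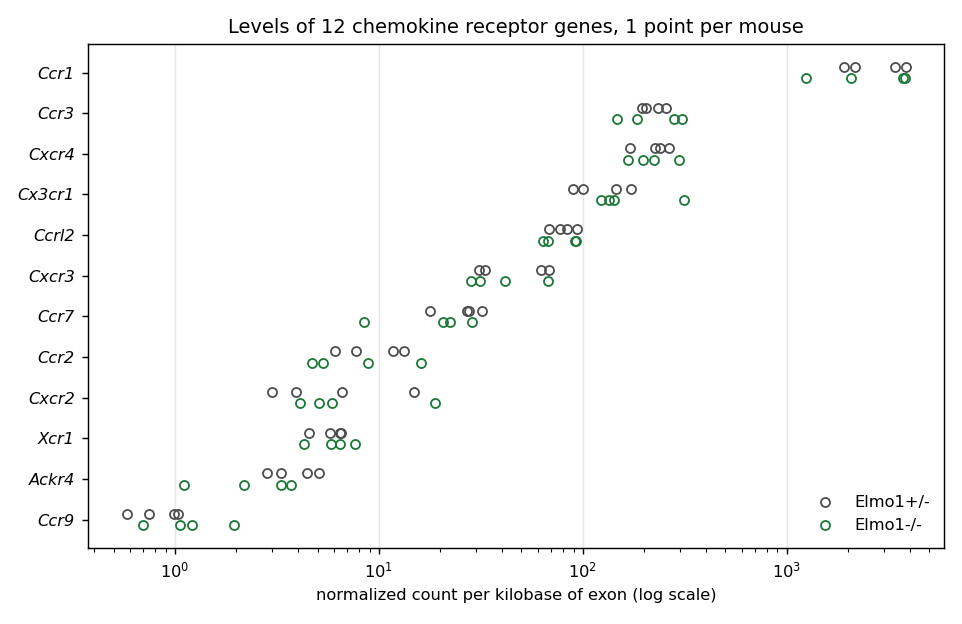
Normalized count per kilobase of exon (log axis) of 12 chemokine receptor genes, in the 4 Elmo1+/- and 4 Elmo1-/- libraries, each point 1 library. Ccr1 lies above all others in every library, Cxcr4, Ccr3 and Cx3cr1 form the next group, and Ccr2 lies lowest of the 6 members.

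The question put to each receptor was whether loss of the second Elmo1 allele changed its level. None of the 6 passed the threshold (limma, adjusted p = 0.999928 for each of the 6, over all 14139 genes), against 0.00707% of all tested genes, and none had an unadjusted p under 0.05. The 2 genotypes overlapped for all 6, where 0.941% of tested genes had no overlap. Neither edgeR nor DESeq2 on the recovered reads called any of the 6. In bulk cultures, fewer cells that express a receptor and less of its RNA per cell cannot be told apart.

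Among the CC receptors, Ccr1 was at 6099, 5408, 10823 and 9616 normalized counts in the Elmo1+/- mice 1 to 4 and at 3529, 5826, 10511 and 10810 in the Elmo1-/- mice 1 to 4. In both genotypes the mice numbered 3 and 4 were the high ones, and the lowest value of all was that of Elmo1-/- mouse 1. The log2 fold change of Elmo1-/- against Elmo1+/- was -0.14 (SE 0.38, 95% interval -1.0 to 0.72), and it was 0.19 without Elmo1-/- mouse 1.

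Ccr3, the eotaxin receptor, was at 641, 666, 841 and 762 in the Elmo1+/- mice and at 482, 603, 918 and 1004 in the Elmo1-/- mice. The Elmo1-/- values surrounded the Elmo1+/- values, being the 2 lowest and the 2 highest of the 8, and the log2 fold change was -0.01 (SE 0.23, 95% interval -0.52 to 0.51), or 0.18 without Elmo1-/- mouse 1. As CCR3 is best known from eosinophils, their markers were read beside it. Epx, the eosinophil peroxidase, had at most 3 reads and was at 0 in 5 of the 8 libraries, the ribonuclease genes Ear1 and Ear2 had at most 1 read, and Prg2, the highest of the list, had 16 to 72 reads, whereas Ccr3 had 504 to 1290. The summed list of 6 markers was 24.8 to 56.2 normalized counts in Elmo1+/- and 31.2 to 81.0 in Elmo1-/- libraries. By library number it was 24.8 to 35.9 in libraries 1 and 2 and 45.7 to 81.0 in libraries 3 and 4, without overlap, so it was higher where Ccr3 was higher. Its part in the Ccr3 values was not tested.

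Ccr2, the receptor for CCL2, was at 52.4, 90.0, 41.1 and 79.0 in the Elmo1+/- mice and at 109, 35.9, 31.7 and 59.9 in the Elmo1-/- mice. The highest and the 2 lowest values were all from Elmo1-/- mice, and the log2 fold change was -0.25 (SE 0.41, 95% interval -1.18 to 0.67), or -0.60 without Elmo1-/- mouse 1. These values rest on 27 to 115 reads per library, the fewest of the 6 genes.

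Cx3cr1, the fractalkine receptor, was at 449, 403, 778 and 653 in the Elmo1+/- mice and at 643, 1406, 606 and 550.0 in the Elmo1-/- mice. Elmo1-/- mouse 2 stood above the other 7 libraries, and the other Elmo1-/- mice lay within the Elmo1+/- range. Its log2 fold change of 0.43 (SE 0.32, 95% interval -0.30 to 1.15) was the largest of the 6 in size, and it was 0.12 without Elmo1-/- mouse 2. The macrophage and monocyte markers, 11 genes, summed to 1607980 normalized counts in that library and to 1751690 to 2003750 in the other 3 libraries numbered 1 and 2, and to 1210650 to 1321600 in the 4 numbered 3 and 4. Lyz2 made up most of each sum, at 1004240 to 1705520 normalized counts. The part of the 11 markers in the Cx3cr1 values was not tested.

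Cxcr4, the receptor for CXCL12, was at 430, 479, 410 and 309 in the Elmo1+/- mice and at 537, 406, 300.5 and 356 in the Elmo1-/- mice. The log2 fold change was -0.04 (SE 0.19, 95% interval -0.48 to 0.40). The atypical receptor Ccrl2 was at 243, 201, 218 and 178 in the Elmo1+/- mice and at 239, 175, 165 and 237 in the Elmo1-/- mice, with a log2 fold change of -0.05 (SE 0.16, 95% interval -0.41 to 0.31). For both receptors the 2 genotypes overlapped over most of their range.

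**Figure D2:**
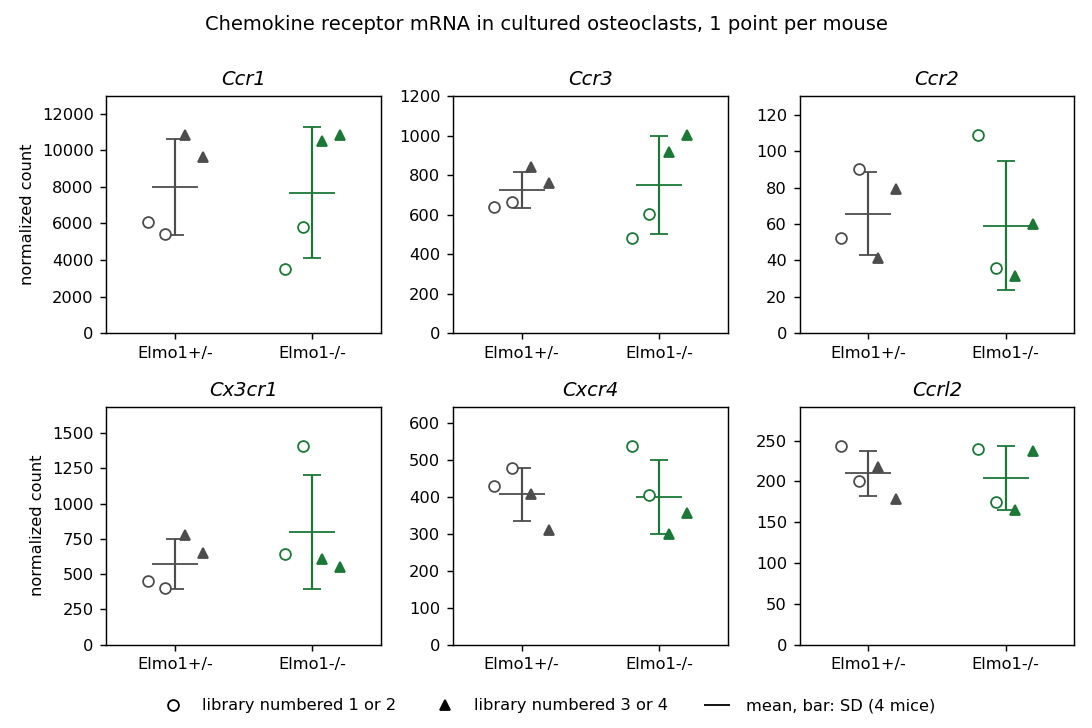
Normalized counts of the 6 receptors in each mouse, with the axis of each panel starting at 0, open circles for mice numbered 1 and 2, triangles for mice numbered 3 and 4, and bars for the mean with SD of the 4 Elmo1+/- and 4 Elmo1-/- mice. The genotypes overlap in every panel, and Elmo1-/- mouse 2 stands out for Cx3cr1 at 1406.

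**Figure D3:**
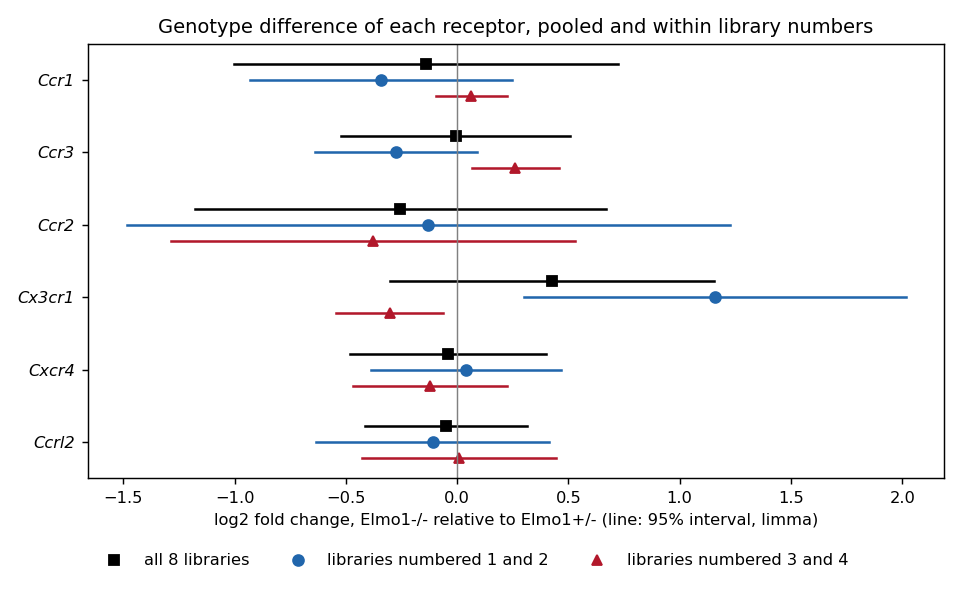
Log2 fold change of Elmo1-/- against Elmo1+/- for the 6 receptors with 95% intervals from limma over all 8 libraries, beside the values within libraries 1 and 2 and within libraries 3 and 4. All intervals over 8 libraries include 0. The sign differs between the 2 sets of libraries for every receptor but Ccr2, though for Ccr1, Ccrl2 and Cxcr4 the intervals in both sets include 0. Only for Cx3cr1 and Ccr3 do the genotypes separate without overlap in each set, in opposite directions.

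The receptors differed in how much they varied between mice of 1 genotype. The pooled SD on the log2 scale was 0.67 for Ccr2, 0.65 for Ccr1 and 0.54 for Cx3cr1, and 0.38 for Ccr3, 0.31 for Cxcr4 and 0.24 for Ccrl2. The median over all tested genes was 0.20, so all 6 varied more than the median gene, and Ccr2 and Ccr1 more than 94.3% and 93.8% of them.

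For Ccr1 and Ccr3 the variation followed the library numbers, a comparison made after the values were seen and given without a test. Ccr1 was at 3529 to 6099 normalized counts in the 4 libraries numbered 1 and 2 (mean 5215) and at 9616 to 10823 in the 4 numbered 3 and 4 (mean 10440, 2.0 times as high). Ccr3 was at 482 to 666 and at 762 to 1004, 1.47 times as high in libraries 3 and 4. Thus 2 of 6 receptors had no overlap between the 2 sets of libraries, beside 34.0% of all tested genes. Both lay above in libraries 3 and 4, beside 18.1% of tested genes, and 0 of 6 lay below, beside 15.8%. Cxcr4 had a mean of 463 in libraries 1 and 2 and 344 in libraries 3 and 4, with overlapping ranges. Per kilobase, the ratio of Ccr1 to Cxcr4 was 4.19 to 9.16 in libraries 1 and 2 and 16.9 to 22.3 in libraries 3 and 4, and that of Ccr1 to Ccr3 8.45 to 11.2 and 12.4 to 14.9.

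The osteoclast markers moved with Ccr1 and Ccr3. All 10, among them Acp5, Ctsk and Calcr, were above without overlap in libraries 3 and 4, beside 18.1% of all tested genes. Their sum was 450909 to 692445 normalized counts in libraries 1 and 2 and 1029110 to 1173010 in libraries 3 and 4. Part of the macrophage and monocyte markers moved the other way. In libraries 3 and 4, 6 of 11 were below without overlap, beside 15.8% of all tested genes, and 0 were above. The ranges of the others, among them Cd68, Adgre1 and Csf1r, overlapped. The sums of the 11 were 1607980 to 2003750 in libraries 1 and 2 and 1210650 to 1321600 in libraries 3 and 4. Lyz2 alone was at 1355860 to 1705520 and at 1004240 to 1072970. The eosinophil list and the basophil and mast cell list (45.4 to 56.4 and 70.4 to 84.0) had low sums that were also above without overlap in libraries 3 and 4, with Prg2 and Gata2 as the genes above. The part of the makeup of the cultures in the receptor values was not tested.

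**Figure D4:**
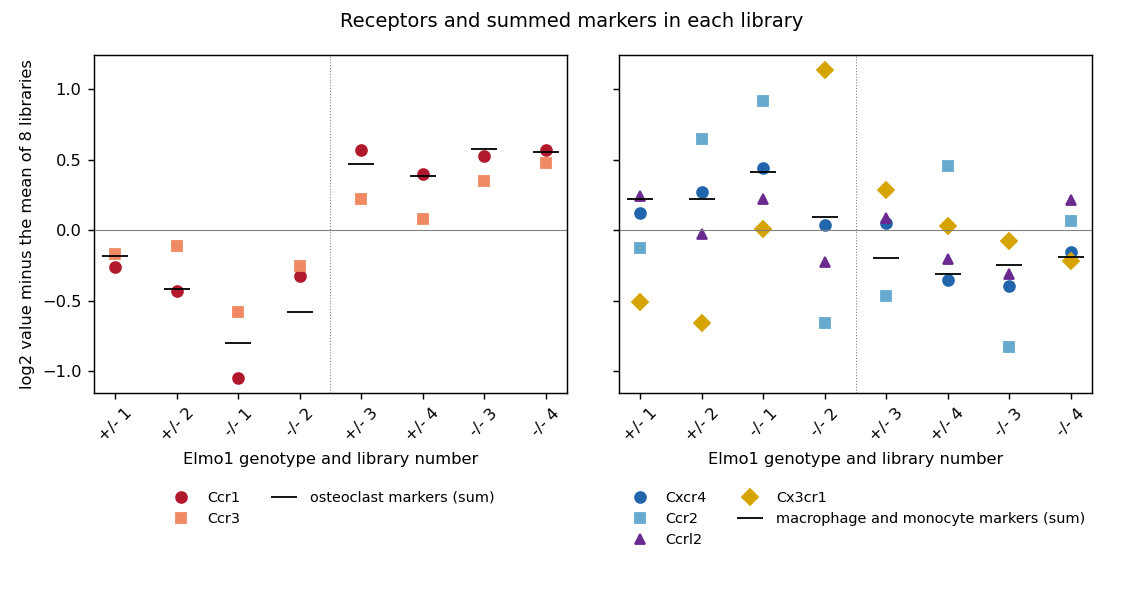
Log2 value minus the mean of the 8 libraries for Ccr1 and Ccr3 with the summed osteoclast markers (left) and for Cxcr4, Ccr2, Ccrl2 and Cx3cr1 with the summed macrophage and monocyte markers (right), by genotype and library number, with a dotted line that parts numbers 1 and 2 from numbers 3 and 4. Ccr1, Ccr3 and the osteoclast sum lie below 0 in all 4 libraries on the left of the line and above 0 in all 4 on its right. The macrophage and monocyte sum is mostly Lyz2.

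Within the library numbers the genotypes separated without overlap and in opposite directions for 2 receptors. The sign also differed for Ccr1 (-0.34 in libraries 1 and 2, 0.063 in libraries 3 and 4), Ccrl2 (-0.11 and 0.0085) and Cxcr4 (0.041 and -0.12). The genotypes of these 3 overlapped in each set, and each of their 95% intervals within a set included 0. For Cx3cr1, both Elmo1-/- libraries were above both Elmo1+/- libraries among those numbered 1 and 2 (log2 fold change 1.16, 95% interval 0.30 to 2.01) and below them among those numbered 3 and 4 (-0.30, 95% interval -0.54 to -0.06). For Ccr3 the order was the opposite, with a log2 fold change of -0.28 (95% interval -0.64 to 0.09) and of 0.26 (95% interval 0.06 to 0.46). Such opposite separation was found for 2 of 6 receptors and for 4.07% of all tested genes. The interaction of genotype and library set, fitted across all genes, was -1.46 for Cx3cr1 (SE 0.41, unadjusted p = 0.00657) and 0.54 for Ccr3 (SE 0.18, unadjusted p = 0.0137). Neither passed after adjustment (limma adjusted p = 0.999857 for both), nor did any tested gene, with 378 at an unadjusted p under 0.05 (2 of them receptors). Within the sets the adjusted p was 0.999993 in libraries 1 and 2 and 0.999905 in libraries 3 and 4 for both genes. The differences therefore rest on 2 libraries per genotype in each set, 1 of them the high Cx3cr1 value of Elmo1-/- mouse 2.

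The other receptors of the family named here had lower mean levels per kilobase than Ccr1, Ccr3, Cxcr4, Cx3cr1 and Ccrl2. Of the list of 24 receptor genes 13 were tested, 0 passed the threshold between genotypes with limma, edgeR or DESeq2, 0 had an unadjusted p under 0.05, and the median log2 fold change was -0.04, beside -0.00 over all tested genes. Cxcr3, a receptor best known from T cells, was at 45.4 per kilobase and was below without overlap in libraries 3 and 4.

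Ccr7, the receptor that takes dendritic cells to lymph nodes, followed at 23.1 per kilobase, and the neutrophil receptor Cxcr2 at 7.80, Xcr1, a receptor of cross-presenting dendritic cells, at 5.93, the scavenger receptor Ackr4 at 3.25 and Ccr9, which takes lymphocytes to the gut, at 1.03. Ackr4 had the lowest log2 fold change of the list (-0.66, SE 0.38) and Ccr9 the highest (0.45, SE 0.34), and neither passed the threshold. For these 2 genes 6.3% and 19.3% of the 75-base windows also occur in other genes. The other 11 receptors were not tested, with no value over 12.2 normalized counts. Ackr1, Ackr3, Ccr6 and Ccr8 had fewer than 3 reads in every library, and no receptor of the list was at 0 in all 8.

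The ligands of these receptors were far from evenly present. Of 15 ligand genes 10 were tested, 0 passed the threshold between genotypes with limma, edgeR or DESeq2 and 0 had an unadjusted p under 0.05, with a median log2 fold change of 0.06. The 3 most abundant per kilobase were Ccl6 (18567), Ccl2 (15282) and Ccl9 (13879), of which CCL6 and CCL9 act on CCR1 and CCL2 on CCR2. The cultures thus held Ccl2 at a high level beside Ccr2 as the lowest of the 6 receptors. The following genes are named after their values were seen. Cxcl12, the CXCR4 ligand, had 1 to 5 reads per library, and Cx3cl1, which encodes fractalkine, was at 6.84 per kilobase. Of the eotaxins that bind CCR3, Ccl11 had at most 1 read, Ccl26 was at 0 in 8 of 8 libraries, and Ccl24 was at 5.58 per kilobase, too low to be tested. Ligands of CCR3 other than the eotaxins were not singled out, and the same list held Ccl7 at 12418 and Ccl5 at 1441 per kilobase. Rarres2, which encodes the CCRL2 ligand chemerin, had 1 read in 1 library. A count of 0 allows up to 3 reads per library, and this limit covers counting error only.

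The signalling genes downstream of the receptors were all expressed. All 20 on the list were tested, 0 passed the threshold with limma, edgeR or DESeq2 and 0 had an unadjusted p under 0.05, with a median log2 fold change of -0.01. The most abundant per kilobase were Rac2 (12696), the GTPase of blood cells that drives actin assembly, Gnai2 (8573), the main Gi alpha subunit of leukocytes, and Gnb1 (4390), a G protein beta subunit. Dock2, the exchange factor that pairs with ELMO1 and was named after its values were seen, was at 681 ± 118 per kilobase in Elmo1+/- and 693 ± 140.2 in Elmo1-/- osteoclasts (log2 fold change 0.02, SE 0.16). In libraries 3 and 4, 3 of the 20 lay above and 11 below without overlap, Dock2 and Gnai2 among the latter, beside 18.1% and 15.8% of all tested genes.

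The genes most like each receptor across the 8 libraries were found by Pearson's r of the log2 values, a description in which the points share the libraries and their 2 sets. For Ccr1 they were 2010300C02Rik (r = 0.998) and Adgra3 (r = 0.998), with 1617 genes over 0.9, and for Ccr3 Slc16a7 (r = 0.996) and Ext1 (r = 0.992), with 828. For Cxcr4 they were Vps51 (r = 0.984) and Wnk2 (r = 0.979), with 232. The other 3 had few genes alike, with 11 or 12 over 0.9 each. These were led by Gm13392 (r = 0.932) and Mypop (r = 0.927) for Ccr2, by C130026I21Rik (r = 0.951) and Pmel (r = 0.938) for Ccrl2, and by Bbs12 (r = 0.947) for Cx3cr1.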

How the data were processed

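Per the submitters' processing notes the tools were FastQC, STAR, featureCounts and DESeq2 (versions, genome build, annotation and strand setting not given in the sources used here), on 75 bp paired-end TruSeq libraries. The deposited values are a count signal per gene: the authors divided the counts by DESeq2 size factors. Dividing each library by its smallest step gave whole reads to within 0.01. Columns of the authors' own comparison (fold changes, p-values) were not used.

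Normalized counts were tested as log2(value + 1) with limma 3.58.1 (trend, robust) in R 4.3.3, Elmo1-/- against Elmo1+/-, no covariate, on the 14139 genes that reached 10 in 4 or more libraries. Adjusted p-values (Benjamini-Hochberg) were judged at 0.05. edgeR 4.0.16 and DESeq2 1.42.0 on the recovered reads, other scalings, filters and pseudocounts, left-out libraries, a replicate block, and library sets were alternatives. Levels were compared between genes per kilobase of GENCODE M21 exons, to which 46005 of 46517 identifiers matched. That annotation may not be the one the authors counted on.

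Members, lists and the library sets were chosen with earlier results of these data known. Named were the 6 receptors, all tested receptors of the family, the 3 ligand and 3 signalling genes of highest level, any past the threshold, the 2 genes most like each receptor, and Elmo1, and marker, ligand and signalling genes outside this rule were chosen after their values were seen. Some items that the rule would name are not reported here. The p-values measure the spread between mice of a genotype. In the main model, which held no covariate, this includes the difference between the 2 library sets. With the library set as a term, 411 genes had an unadjusted p under 0.05 (limma), beside 133 in the main model, and no receptor passed the threshold. Same-numbered libraries deviated from their genotype means together (correlations of 0.703, 0.156, 0.598 and 0.520 in 4 pairs), and every pair exceeded 0.1, the rule used for pairing. Differently numbered libraries of a set did so too in 3 of 4 pairs (0.691, 0.561 and 0.614, and 0.026 in the other), which does not single out the numbers within a set.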

Additional observations from a re-analysis of the deposited data

Results flagged for a closer look

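Over 44 genes (the receptor, ligand and signalling genes tested, and Elmo1), 88 groups of 4 mice were searched for a value far from the others by Dixon's ratio, the gap to the nearest mouse over the range of the group. Chance flags about 1 group in 20, or 4.4 here, and 5 were found, all in Elmo1-/- mice. The genes share the same 8 libraries, so the flags are not independent of each other.

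Cx3cr1 in Elmo1-/- mouse 2 was at 1406 normalized counts against 550.0 to 643 in the other 3 (ratio 0.891). The other 4 were in Elmo1-/- mouse 1. Cxcr2 was at 57.7 against 12.5 to 18.0 (ratio 0.88), while Elmo1+/- mouse 2 was at 45.5. Ccl5 was at 2917 against 992 to 1298 (ratio 0.841). Ccl8, a chemokine of the same family as Ccl2, was at 942 against 105 to 175 (ratio 0.917). Gnai3, a Gi alpha subunit, was the low one at 4099 against 5614 to 5833 (ratio 0.874).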

How the results depend on the processing

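No receptor passed the threshold under any of 20 alternatives, with adjusted p between 0.937 and 0.999993. Of 120 receptor values under these alternatives, 101 kept their direction and 19 changed it. Leaving out 1 mouse gave log2 fold changes of -0.35 to 0.19 for Ccr1, -0.60 to -0.02 for Ccr2, -0.17 to 0.18 for Ccr3, -0.13 to 0.044 for Ccrl2, 0.12 to 0.59 for Cx3cr1 and -0.19 to 0.086 for Cxcr4. Ccr3 was 0.050 with edgeR and 0.048 with DESeq2. In libraries 3 and 4 alone, Ccr1 was 0.063, Ccr3 0.26, Ccrl2 0.0085 and Cx3cr1 -0.30, and in libraries 1 and 2 alone Cxcr4 was 0.041. The cause of these changes was not tested. The count of genes past the threshold, 1 (Elmo1), was 2 with DESeq2, 2 in libraries 3 and 4 alone, and 1 to 2 when 1 mouse was left out, where it was 2 without Elmo1+/- replicate 2. The added gene was Gpr137b-ps each time. With the replicate block the count was 1, the log2 fold changes were unchanged (Cx3cr1 0.43), and no call changed. Depth limits Ccr2 most, at 27 to 115 reads per library.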
